A study of Homo sapiens with 12 samples.

Results

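The comparison asked which genes differ between L-428 cells that carry EBF1 and L-428 cells that carry the marker alone. L-428 is an established cell line from Hodgkin lymphoma. It was represented by 6 of the 12 arrays of the series, 3 labelled L-428 tGFP/EBF1 and 3 labelled L-428 tGFP, taken by these labels. The control cells had received tGFP-only, a vector for the fluorescent protein tGFP, and the other cells tGPF-IRES-EBF1, as the labels spell the vector that joins the marker to EBF1. Cells of both groups grew for 8 days after transduction and were sorted for tGFP before RNA was taken, and the labels call the 3 samples of a group independent. The other 6 arrays, of L-1236, a second Hodgkin line, with the same vectors, entered the shared estimate of spread and a single test of difference. Of 32321 rows on the array, the 20546 with a gene symbol in the platform annotation were tested, 19158 of them with 1 symbol and 1388 with several.

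EBF1, early B-cell factor 1, is a DNA-binding protein that starts the expression programme of B-lineage progenitors together with the E protein TCF3, FOXO1 and PAX5. It binds a palindromic site at genes of the B-cell receptor complex, among them CD79A, and holds down genes of T, natural killer and myeloid cells. The tumour cells of Hodgkin lymphoma come from B cells but have lost most of that programme, and live among chemokine and cytokine signals that they make themselves. A single line with a transduced gene stands for 1 genetic background, and the values are of bulk sorted cells.

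Any pair of L-428 arrays correlated at 0.9937 to 0.9974 (Pearson, all rows) within a group and at 0.9933 to 0.996 across the groups. Replicate 3 of the tGFP controls stood apart. Its values had an interquartile range of 2.28 on the log2 scale against 2.49 and 2.47 on the other controls and 2.41 to 2.47 on the EBF1 arrays, so its values were less spread than those of the other arrays. List counts that it moves are therefore also given without that array. The deposited values were read as log2 units, 1 unit being a 2-fold difference. A row is said to have risen or fallen where limma, an array-wide linear model with moderated variances, gave a Benjamini-Hochberg adjusted p of 0.05 or less. The median standard error of a log2 change was 0.0694, with 3 arrays against 3.

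The transduced gene was read at 8.63, 8.37 and 8.34 on the control arrays and at 12.96, 12.98 and 12.93 with EBF1, a 22.8-fold difference that matches the labels. The row also lists PDGFRB, whose own row read 6.87 ± 0.16 and 6.81 ± 0.050 (SD, n = 3). Changes outside EBF1 were few in number and mostly small. In all, 892 rows (4.34% of those tested) passed, 538 higher (2.62%) and 354 lower (1.72%), and 805 of them changed by less than 1.5-fold. At 1.5-fold or more there were 87 rows (0.423%), 59 higher (0.287%) and 28 lower (0.136%). At the study's own limit of 2-fold there were 20 (0.0973%), 16 higher (0.0779%) and 4 lower (0.0195%). None of the 87 rows had overlapping groups, whereas over all rows 3754 (18.3%) did not overlap, 2320 with every EBF1 array above every control (11.3%) and 1434 below (6.98%). In bulk samples a lower signal from fewer expressing cells and one from less RNA per cell cannot be told apart.

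Without control replicate 3, the 16 rows higher by 2-fold all passed the adjusted p again and 12 stayed past 2-fold, and the 4 lower rows did both. GNG11 (0.98), CD40 (0.98), FOS (0.87) and LGALS3BP (0.99) dropped just below 1 log2 unit. Of the 59 rows higher by 1.5-fold, 59 passed and 49 kept the fold, and of the 28 lower rows 28 did both. The counts with no fold limit depended on this array far more. They became 464 higher and 843 lower without it, a majority of falls in place of a majority of rises, with 396 of the 538 rises and 340 of the 354 falls kept and no sign turned. Among the 538 rows that rose, control 3 lay below the mean of the other 2 controls in 439. Among the 354 that fell it lay below that mean, on the side of the EBF1 arrays, in 323. The balance between rises and falls over small changes therefore depended on this array. Other controls mattered for the falls: 18 of the 28 falls at 1.5-fold were kept without control replicate 1 and 21 without replicate 2, and of the 4 at 2-fold 3 and 2, while the rises kept were 59 and 58 of 59 and, at 2-fold, 16 of 16 in both.

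**Figure D1:**
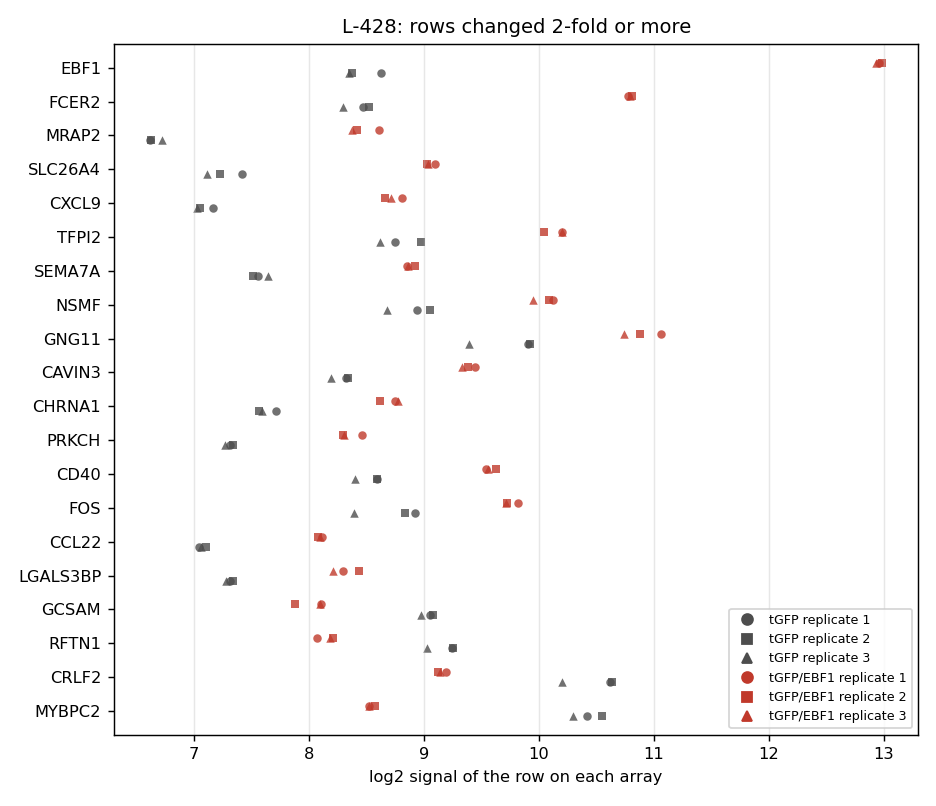
Log2 signal (horizontal axis) of the 20 rows that changed 2-fold or more, 1 row of points per gene, with 3 tGFP arrays in grey and 3 tGFP/EBF1 arrays in red and a symbol for each replicate. In every row the 2 colours are apart, and the grey triangle of control replicate 3 is the lowest control for most genes; for FCER2 the controls lie at 8.29 to 8.52 and the EBF1 arrays at 10.77 to 10.81.

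Of B-cell surface genes, FCER2 and CD40 rose most. FCER2 codes for CD23, a low-affinity receptor for IgE carried by mature B cells. Its signal was 8.47, 8.52 and 8.29 on the controls and 10.77, 10.81 and 10.79 with EBF1, a 5.13-fold rise (log2 change 2.36, SE 0.0657; limma, adjusted p = 3.5e-14). The EBF1 arrays lay close together and far above every control. CD40, the receptor through which T cells help B cells, read 8.59, 8.59 and 8.40 on the controls and 9.54, 9.63 and 9.56 with EBF1 (log2 change 1.05, SE 0.0702; limma, adjusted p = 2.08e-08). Of 17 measured Fc receptor and FCRL genes FCER2 alone passed (5.88%, against 4.46% over all genes with 1 row each). Without control replicate 3 FCRLA passed as well. CR2, the complement receptor CD21 that pairs with CD23 as a ligand, read 6.57 ± 0.093 and 6.49 ± 0.056 (SD, n = 3) with overlapping arrays.

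Textbook targets of EBF1 numbered 24 on the array, of which 6 rose and 1 fell, with a median log2 change of 0.057 against 0.0037 over all rows tested. The list was chosen with earlier results of these data known, so its share is no test. Of its genes 29.2% passed, against 4.46% over all genes with 1 row each. Besides CD40 these were CD38 (0.49), an ectoenzyme of activated and early B cells, the transcription factors IRF8 (0.46) and SPIB (0.39), the tetraspanin CD53 (0.38) and CD79A (0.23), the Ig-alpha chain of the B-cell receptor. The call of CD79A was lost in 8 of the other settings tried. CD24, a glycoprotein of immature B cells, fell (-0.34), a call lost in 6 of these settings. CD38 read 6.75, 6.90 and 6.86 on the controls and 7.25, 7.37 and 7.34 with EBF1, and IRF8 went from 10.20, 10.09 and 9.83 to 10.44, 10.54 and 10.52. In both, the lowest EBF1 array lay above the highest control. Of the 24 targets, 14 lay below the array median on all 6 arrays, CD38 and CD79A among them. CD53 no longer passed without control replicate 3 (0.25; limma, adjusted p = 0.11), while FCRLA, at 0.21 with all arrays (limma, adjusted p = 0.0703), then did. Other members did not pass, among them PAX5 (0.20; limma, adjusted p = 0.0724), the pre-B-cell gene VPREB1 (-0.078), the adaptor BLNK (0.041) and the kinase BLK (-0.052). Of 14 factors of the EBF family and its partners, 0 rose and 0 fell (limma; 1 higher and 1 lower at an unadjusted p under 0.05), with RUNX1 at -0.20 and ZNF423 at 0.094. Without control replicate 3, 2 of the 14 fell, RUNX1 (-0.30) and the lymphoid factor IKZF1 (-0.20).

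Genes of the B-cell receptor and its signalling went both ways, 2 higher and 2 lower of 29 (1 and 4 without control replicate 3). This was 13.8%, against 4.46% over all genes with 1 row each. The rises were CD79A and PPP3CA (0.25), a calcineurin subunit that did not pass without control replicate 3 (limma, adjusted p = 0.0995). PRKCB, a protein kinase C that carries the receptor's signal to NF-kappaB, fell from 8.35, 8.33 and 8.25 to 7.60, 7.76 and 7.75 (log2 change -0.60, SE 0.0645; limma, adjusted p = 9.77e-06). INPP5D, the inhibitory lipid phosphatase SHIP1, fell by 0.33. PRKCH, the eta form of protein kinase C and not on that list, rose from 7.31, 7.33 and 7.27 to 8.46, 8.29 and 8.30 (log2 change 1.05; limma, adjusted p = 2.28e-08). The remaining 11 of 13 members of that kinase family did not pass. GCSAM, an adaptor of germinal-centre B cells that acts in receptor signalling and motility, fell from 9.05, 9.07 and 8.97 to 8.10, 7.88 and 8.09 (log2 change -1.01, SE 0.0689; limma, adjusted p = 2.28e-08).

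Of a list of genes tied to the interferon-gamma response, 32.3% rose, against 2.62% of all rows. Interferon-gamma acts through the receptor chains IFNGR1 and IFNGR2 and the kinases JAK1 and JAK2, and switches on IRF1, the guanylate-binding proteins, immunoproteasome subunits and the chemokines CXCL9, CXCL10 and CXCL11. Of 31 measured members 10 rose and 1 fell, and the median change was 0.134. In 15 every EBF1 array lay above every control, against 11.3% of all rows. On all 6 arrays 25 of the 31 lay above the array median. Without control replicate 3, 8 rose and 0 fell, or 25.8%, and the median was 0.081. The mean over the list was 9.04, 9.02 and 8.86 on the controls and 9.21, 9.19 and 9.21 with EBF1, so the groups did not overlap, and control 3 was the lowest. The list includes the receptor chains and kinases named above and holds only a part of the response genes. It was chosen with earlier results of these data known, and its share is no test. Outside it, UBD rose (0.91) and BST2, also induced by interferons, fell (-0.61).

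CXCL9, which draws T cells that carry CXCR3, was at 7.16, 7.05 and 7.02 on the controls and at 8.81, 8.66 and 8.71 with EBF1, a 3.13-fold rise (SE of the log2 change 0.0632; limma, adjusted p = 4.13e-12). Its relatives with the same receptor did not pass, CXCL10 at 0.075 and CXCL11 at 0.0083. CD274, the checkpoint ligand PD-L1, went from 8.31, 8.22 and 8.22 to 9.22, 9.22 and 9.04 (log2 change 0.91, SE 0.0674; limma, adjusted p = 6.49e-08). PDCD1LG2, the second ligand of that receptor, rose less (0.41, SE 0.0843), and these were the 2 genes that passed among 18 of the B7 family and its receptors. IRF1, the main transcription factor of the response, read 10.25, 10.10 and 9.88 on the controls and 10.59, 10.66 and 10.72 with EBF1 (log2 change 0.58, SE 0.0762; limma, adjusted p = 9.4e-05). The controls were spread, with replicate 3 lowest, yet none reached the lowest EBF1 array.

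Other rises on the list included IFI30 (0.54), a lysosomal reductase of antigen processing, PSMB9 (0.32), an immunoproteasome subunit, and IDO1 (0.29), which degrades tryptophan. The guanylate-binding proteins GBP4 (0.49), GBP3 (0.31) and GBP2 (0.30) rose too, as did a second row for GBP2 (0.32). A row that lists GBP1P1, GBP3 and GBP1 together rose by 0.83, from 9.83 ± 0.23 to 10.65 ± 0.047 (SD, n = 3). GBP3 and IDO1 did not pass without control replicate 3 (limma, adjusted p = 0.119 and 0.0788). Upstream, IFNGR1 (-0.13), IFNGR2 (0.11), JAK1 (0.075) and the class II transactivator CIITA (-0.035) did not pass, and JAK2 fell by 0.24, a call that did not hold without control replicate 3 (limma, adjusted p = 0.0615). The gene of the cytokine itself, IFNG, looked up after the list had been seen, went from 6.75, 6.70 and 6.62 to 7.17, 7.22 and 7.06 (log2 change 0.46; limma, adjusted p = 9.4e-05). All these readings lay below the lowest array median of the rows tested, 7.596.

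**Figure D2:**
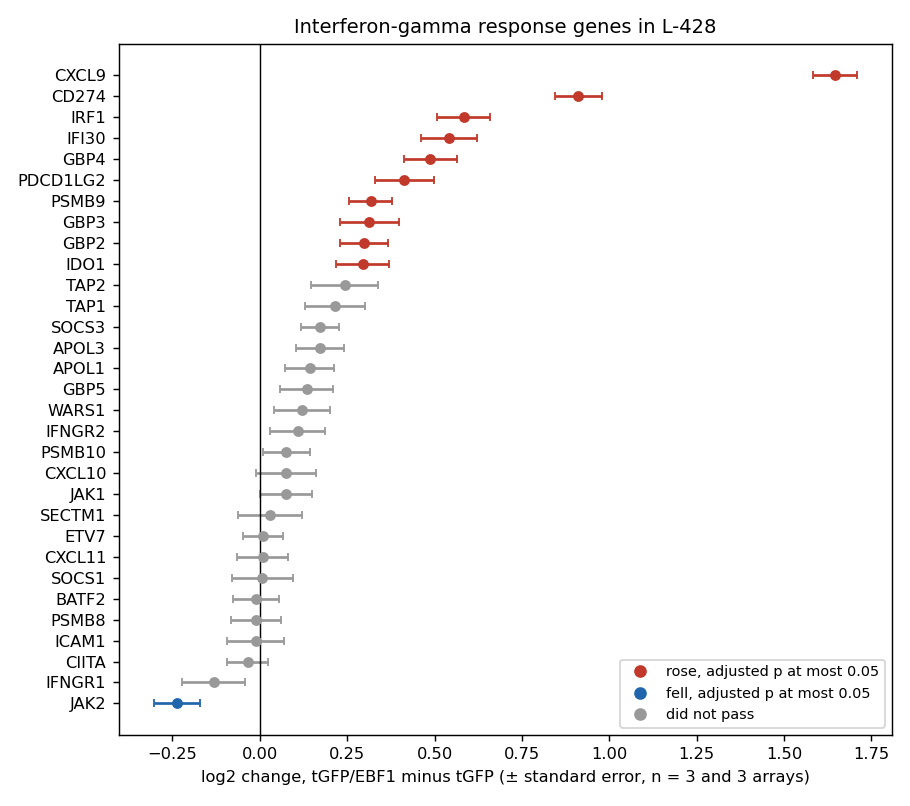
Log2 change with EBF1 (horizontal axis, points) and its standard error (bars, 3 arrays against 3) for the 31 measured genes of the interferon-gamma list, sorted by size. The list includes the receptor chains and kinases upstream. Rises are in red, falls in blue and genes that did not pass in grey. CXCL9 (1.65) and CD274 (0.91) lie well to the right of the rest, 8 further genes rose by 0.29 to 0.58, and JAK2 (-0.24) alone fell.

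Promoters of the genes that moved together were searched in RefSeq windows of GRCh38.p14, 250 bases before to 50 after each start. 3 palindromic patterns were looked up, so that 1 strand covers both: TTCNNNGAA, the core bound by STAT factors, and a loose and a strict form of the EBF core, CCCNNGGG alone and the same letters with a T before and an A after, so that the strict contains the loose. Of the 10 interferon-gamma genes that rose, 7 had a window, and TTCNNNGAA was in 3 of these 7 (42.9%), in 8 of 33 windows of the whole list (24.2%), in 7.66% of all 35116 windows and in 6.92% of those of the genes tested. It was absent from the windows of CXCL9, IFI30, GBP4 and PSMB9, and present at 5 genes of the list that did not pass, among them CXCL11. Over all genes it was in 7.69% of windows for rises of 1.5-fold or more and in 13.0% for such falls. This pattern was added after the values had been seen. IRF1 (chr5:132490774-132491023, minus strand), CD274 (chr9:5450292-5450541, plus strand) and GBP3 (chr1:89022867-89023116, minus strand) hold it at 124, 125 and 15 bases before the start, and FCER2, which rose most apart from EBF1 (chr19:7699442-7699691, minus strand), at 185, in 1 of its 2 windows. They are printed 5′ to 3′ up to the base before the start, with the match in capitals:
IRF1: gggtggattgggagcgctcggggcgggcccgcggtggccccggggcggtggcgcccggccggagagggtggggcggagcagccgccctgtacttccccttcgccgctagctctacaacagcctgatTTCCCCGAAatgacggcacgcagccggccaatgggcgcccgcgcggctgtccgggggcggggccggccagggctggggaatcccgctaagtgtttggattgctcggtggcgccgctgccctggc
CD274: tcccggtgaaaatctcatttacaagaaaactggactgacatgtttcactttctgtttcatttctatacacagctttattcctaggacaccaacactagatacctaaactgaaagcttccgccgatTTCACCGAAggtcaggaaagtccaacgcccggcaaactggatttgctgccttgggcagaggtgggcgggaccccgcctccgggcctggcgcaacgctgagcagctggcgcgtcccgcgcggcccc
GBP3: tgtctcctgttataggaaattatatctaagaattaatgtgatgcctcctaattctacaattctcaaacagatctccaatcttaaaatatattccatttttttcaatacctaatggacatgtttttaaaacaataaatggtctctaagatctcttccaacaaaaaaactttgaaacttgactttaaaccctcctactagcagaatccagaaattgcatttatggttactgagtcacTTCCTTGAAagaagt
FCER2: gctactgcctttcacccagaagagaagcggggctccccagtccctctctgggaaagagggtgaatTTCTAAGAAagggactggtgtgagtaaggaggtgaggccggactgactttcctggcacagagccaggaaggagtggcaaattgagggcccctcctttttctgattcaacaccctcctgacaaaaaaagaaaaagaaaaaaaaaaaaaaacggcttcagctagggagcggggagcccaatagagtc
A match is a run of letters and not a measured binding site.

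The strict EBF core was in 1.01% of the windows of genes that rose, 2.18% of those that fell, 1.21% of all windows and 1.35% of those of the genes tested. The loose core was in 21.3%, 24.8%, 19.1% and 21.9%, so the genes that rose held either core no more often than the genes tested. Of the 83 rows with 1 symbol at 1.5-fold, 63 had a window, and the strict core was found at TRIM14 alone, a gene of antiviral signalling that fell by 0.59 (chr9:98119223-98119472, minus strand, 18 bases before the start). Among the genes higher by 2-fold, PRKCH holds the loose core 3 times, 2 of them overlapping (chr14:61321329-61321578, plus strand). TRIM14 is shown as the single strict match and PRKCH for its repeated loose core, with the cores in capitals:
TRIM14: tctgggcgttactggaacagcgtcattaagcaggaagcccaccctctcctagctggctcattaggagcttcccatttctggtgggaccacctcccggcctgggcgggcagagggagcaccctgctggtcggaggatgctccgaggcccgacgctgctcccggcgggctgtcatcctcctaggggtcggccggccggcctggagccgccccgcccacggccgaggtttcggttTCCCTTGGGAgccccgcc
PRKCH: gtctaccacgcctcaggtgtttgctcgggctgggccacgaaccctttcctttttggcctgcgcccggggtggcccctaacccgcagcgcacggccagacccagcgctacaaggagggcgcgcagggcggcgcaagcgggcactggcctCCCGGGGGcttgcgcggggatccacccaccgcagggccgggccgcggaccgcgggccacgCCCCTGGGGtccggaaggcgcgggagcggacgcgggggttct
TRIM14 read 9.29, 9.29 and 8.99 on the controls and 8.60, 8.57 and 8.64 with EBF1, and was looked at after its value had been seen. TRIM14, with the strict core, fell, and PRKCH, with the loose core only, rose. Whether either core plays a part was not tested.

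Chemokines and their receptors changed in part. CCL22, which Hodgkin cells release and which draws T cells through CCR4, rose from 7.04, 7.10 and 7.06 to 8.11, 8.08 and 8.09 (log2 change 1.03, SE 0.0663; limma, adjusted p = 1.41e-08). CCL17, the other ligand of CCR4, read 9.16 ± 0.015 and 9.16 ± 0.10 (SD, n = 3). CCR4 itself was lower by 0.27 and missed the threshold (limma, adjusted p = 0.0738), passing without control replicate 3 (-0.39; limma, adjusted p = 0.0013). CXCR3, the receptor of CXCL9, fell from 9.06, 9.13 and 8.77 to 8.58, 8.63 and 8.55, so that CXCL9 rose and its receptor fell by 0.40. Of 37 chemokines 2 rose and 3 fell (2 and 4 without control replicate 3). This was 13.5%, against 4.46% over all genes with 1 row each. The falls were CCL1 (-0.61), the ligand of CCR8, CCL5 (-0.41) and the membrane-bound CX3CL1 (-0.41). CCL5 lost its call in 6 of the other settings tried. CCL1 and CCL5 were bright on the controls, at 11.83 ± 0.21 and 11.88 ± 0.26, and each EBF1 array lay below each control.

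Of 42 cytokine receptors 5 fell (11.9%, against 1.72% of all rows) and 1 rose (2.38%, against 2.62%), or 6 and 2 without control replicate 3. At an unadjusted p under 0.05, 8 were lower and 6 higher. CRLF2, the receptor chain for thymic stromal lymphopoietin, went from 10.62, 10.63 and 10.20 to 9.19, 9.12 and 9.14 (log2 change -1.34, SE 0.0938; limma, adjusted p = 3.24e-08), and -1.48 without control replicate 3. Its ligand TSLP read 5.69 ± 0.088 and 5.75 ± 0.0027, and its partner chain IL7R 6.05 ± 0.10 and 6.19 ± 0.030 (SD, n = 3), neither past the threshold. Chains of the interleukin-2 receptor parted ways. IL2RB fell from 10.01, 10.04 and 9.62 to 9.21, 9.24 and 9.29 (-0.64), and IL2RA, the alpha chain CD25, rose from 7.07, 7.11 and 7.11 to 7.69, 7.61 and 7.69 (0.57, SE 0.069; limma, adjusted p = 4.63e-05). The remaining falls were IL3RA (-0.30), IL27RA (-0.30) and IL12RB1 (-0.22). Among 46 interleukins and colony-stimulating factors, CSF1, a growth factor of macrophages, fell by 0.65, IL5 by 0.42 and IL13 by 0.30, the last 2 being type 2 cytokines. IL5 lost its call in 6 of the other settings tried. IL6 (0.36) and IL7 (0.26) rose, IL7 not without control replicate 3 (limma, adjusted p = 0.0827).

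Molecules of adhesion and guidance formed a further set of changes. SEMA7A, a semaphorin held in the membrane by a lipid anchor that binds integrins and plexin C1, rose from 7.55, 7.51 and 7.64 to 8.85, 8.92 and 8.86 (log2 change 1.31, SE 0.0577; limma, adjusted p = 3.24e-11). The EBF1 arrays were tight and far above the controls. Its receptor PLXNC1 fell (-0.25), as did SEMA6A (-0.48), the neuropilin NRP2 (-0.37), SEMA4D (-0.27) and SEMA4B (-0.25), while SEMA4A rose (0.31), giving 2 higher and 5 lower of 32. NRP2 and SEMA4D each have a second row that did not pass (-0.17 and -0.029). The call of PLXNC1 was lost in 8 of the other settings tried, that of NRP2 in 5 and that of SEMA4D in 4. Of 25 integrins 0 rose and 4 fell (limma; 0 and 5 without control replicate 3, and with all arrays 0 and 6 at an unadjusted p under 0.05). They were ITGAL, the alpha chain of the leukocyte integrin LFA-1, from 8.88, 8.83 and 8.70 to 8.12, 8.03 and 8.03 (-0.74, SE 0.067; limma, adjusted p = 1.09e-06), ITGA6 (-0.46), ITGAV (-0.45) and ITGB1 (-0.32), the shared beta-1 chain. ITGB1 lost its call in 7 of the other settings tried. The selectin ligand SELPLG fell (-0.42), and SLAMF1, a self-binding lymphocyte receptor, rose from 7.73, 7.78 and 7.39 to 8.51, 8.41 and 8.46 (0.83), followed by PECAM1 (0.72) and the hyaluronan receptor CD44 (0.47). A second, dim row for PECAM1 did not pass (0.031).

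Tetraspanins, which organise such receptors in the membrane, split evenly, CD82 (0.72) and CD53 higher and TSPAN2 (-0.62) and TSPAN8 (-0.62) lower of 32 (2 and 3 without control replicate 3). Of 17 genes of caveolae and lipid rafts 3 rose and 1 fell. The share that passed was 23.5% here and 12.5% of the tetraspanins, against 4.46% over all genes with 1 row each. CAVIN3, a coat protein of caveolae, went from 8.32, 8.33 and 8.19 to 9.44, 9.38 and 9.33 (log2 change 1.10, SE 0.0959; limma, adjusted p = 7.05e-07), while its partner CAVIN1 was at 6.77 ± 0.086 and 6.72 ± 0.036 and the caveolin CAV1 at 11.85 ± 0.25 and 11.89 ± 0.042 (SD, n = 3). RFTN1, raftlin, which keeps B-cell receptors in rafts, fell from 9.24, 9.25 and 9.03 to 8.07, 8.20 and 8.18 (-1.02, SE 0.068; limma, adjusted p = 1.96e-08), while a second, dim row for it did not pass (0.051). The adaptor PAG1 (0.50) and the recycling protein EHD1 (0.33) rose. Of the TNF ligands and receptors, 3 of 41 rose, CD40, the co-stimulatory TNFRSF9 (0.37) and TNFSF4 (0.30), and the death ligand TNFSF10 fell (-0.36). Without control replicate 3 the count was 3 and 4, and with all arrays 9.76% of these TNF genes passed. TNFSF10 lost its call in 6 of the other settings tried and TNFSF4 in 4.

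Immediate early and MAP kinase feedback genes moved in both directions. FOS, a subunit of AP-1, read 8.92, 8.83 and 8.39 on the controls and 9.82, 9.72 and 9.71 with EBF1 (log2 change 1.04, SE 0.101; limma, adjusted p = 3.13e-06). Control 3 was far the lowest, and the change was 0.87 without it. Of 41 MAP kinase phosphatases and feedback genes 5 rose and 3 fell (4 and 5 without control replicate 3). This was 19.5%, against 4.46% over all genes with 1 row each. DUSP7, a phosphatase of ERK, rose by 0.65 from 10.13 ± 0.17, EGR1 by 0.49, IER3 by 0.48, DUSP2 by 0.32 and IER2 by 0.25, and the ERK inhibitors SPRED2 (-0.38), SPRED1 (-0.24) and DUSP4 (-0.28) fell. IER2 did not pass without control replicate 3 (limma, adjusted p = 0.104). ETV5, an ETS factor that ERK signalling induces, rose from 7.03, 7.03 and 7.06 to 7.74, 7.51 and 7.70 (0.61), and FLI1, another ETS factor, fell from 7.61, 7.48 and 7.46 to 6.96, 6.96 and 6.94 (-0.56). MKNK2, a kinase that ERK activates and that acts on translation, lay just outside 2-fold at 0.99 and at 0.86 without control replicate 3.

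Other signalling genes gave 2 of the larger rises. GNG11, a gamma subunit of heterotrimeric G proteins, went from 9.90, 9.92 and 9.39 to 11.06, 10.88 and 10.74 (log2 change 1.15, SE 0.126; limma, adjusted p = 1.25e-05). It had the largest standard error of the 20, and still every EBF1 array lay above every control. DOCK8, a guanine nucleotide exchange factor of lymphocytes, rose from 8.14, 8.12 and 7.99 to 9.04, 8.96 and 9.01 (0.92, SE 0.0607; limma, adjusted p = 1.91e-08). Of 52 G-protein subunits and RGS proteins 3 rose and 1 fell (2 and 3 without control replicate 3), among them RGS16 (0.37) and RGS9 (-0.31). This was 7.69%, against 4.46% over all genes with 1 row each. RGS9 lost its call in 7 of the other settings tried.

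Several of the largest changes were in genes better known outside lymphocytes. MRAP2, an accessory protein of melanocortin receptors in the brain, rose from 6.62, 6.63 and 6.72 to 8.61, 8.42 and 8.37, or 3.51-fold (SE of the log2 change 0.0673; limma, adjusted p = 3.75e-12). The 5 melanocortin receptors lay between 6.08 and 7.28 on every array and changed by -0.067 to 0.040, and MRAP was at 6.84 ± 0.12 and 7.01 ± 0.071. SLC26A4, pendrin, an anion exchanger of thyroid and inner ear, rose from 7.41, 7.23 and 7.11 to 9.09, 9.02 and 9.04, or 3.48-fold (limma, adjusted p = 1.11e-11), the only 1 of 9 SLC26 genes to pass. CHRNA1, the alpha subunit of the muscle acetylcholine receptor, rose from 7.71, 7.56 and 7.59 to 8.75, 8.62 and 8.77 (log2 change 1.09, SE 0.0664; limma, adjusted p = 7.28e-09). The other 4 subunits of that receptor changed by -0.042 to 0.075, while the neuronal subunits CHRNB4 rose (0.43) and CHRNA6 fell (-0.32). MYBPC2, a myosin-binding protein of fast skeletal muscle, had the largest fall, from 10.41, 10.55 and 10.29 to 8.52, 8.57 and 8.52, or 3.68-fold lower (SE of the log2 change 0.0709; limma, adjusted p = 3.75e-12), and the other 31 sarcomere genes did not pass (1 rose without control replicate 3).

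TFPI2, a secreted protease inhibitor, rose from 8.75, 8.97 and 8.62 to 10.20, 10.04 and 10.20 (log2 change 1.37, SE 0.0882; limma, adjusted p = 1.41e-08). SERPINB9, which blocks granzyme B, fell from 11.05, 11.16 and 10.84 to 10.53, 10.46 and 10.49 (-0.52), and 67 of the 69 protease inhibitors did not pass (1 rose and 6 fell without control replicate 3). NSMF, a protein that travels from synapse to nucleus in neurons, rose from 8.94, 9.05 and 8.68 to 10.12, 10.09 and 9.95 (1.16), and LGALS3BP, a secreted binding partner of galectins, from 7.31, 7.34 and 7.27 to 8.29, 8.44 and 8.21 (1.01). Of the 16 rows higher by 2-fold, 7 lay below the array median on all 3 controls, as did 48.4% of all rows tested, and none did so with EBF1. Of the 4 lower rows, 0 lay below the array median on the controls or with EBF1.

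The nearest rows with 1 symbol outside 2-fold were MKNK2 (0.99) and CDC20B (0.98) among the rises and, well short of the limit, MFGE8 (-0.76) and ITGAL (-0.74) among the falls. CCL22 (1.03), LGALS3BP (1.01), RFTN1 (-1.02) and GCSAM (-1.01) stood just inside. Between 1.5-fold and 2-fold lay 43 rows that rose and 24 that fell. CDC20B, a relative of the mitotic activator CDC20, read 7.76, 7.73 and 7.52 on the controls and 8.66, 8.58 and 8.71 with EBF1. BMP6, a ligand of the TGF-beta family, rose from 7.31, 7.44 and 7.51 to 8.29, 8.34 and 8.31 (0.89), SCARB1, a receptor for high-density lipoprotein, from 8.82, 8.85 and 8.66 to 9.63, 9.60 and 9.57 (0.82), and CTNS, the lysosomal cystine exporter, from 10.29, 10.28 and 9.98 to 11.06, 10.92 and 10.97 (0.80). The rest of the 15 largest were CCDC126 (0.93), DOCK8, CD274, TAAR6 (0.91), UBD (0.91), AFF2 (0.90), PM20D2 (0.84), SLAMF1, CLIC2 (0.83) and RANBP3L (0.76). UBD, a ubiquitin-like protein that interferon-gamma induces, owed much of its size to control replicate 3. It read 7.48, 7.16 and 6.33 on the controls and 7.77, 7.85 and 8.05 with EBF1, the change was 0.58 without that array, and a second row for the gene rose by 0.24. SLC22A4 (0.76), a cation and ergothioneine transporter, and the potassium-channel subunit KCNMB1 (0.70) were among the 26 further rises of 0.59 to 0.76.

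Among the moderate falls, MFGE8, a secreted bridge between dying cells and integrins, went from 9.57, 9.50 and 9.12 to 8.59, 8.70 and 8.63 (-0.76; -0.89 without control replicate 3). A row that lists both SDC4 and ROS1 fell by 0.96. NID2, a basement membrane protein, went from 7.96, 7.92 and 7.54 to 7.07, 7.11 and 7.21 (-0.68), and ABCB10, a mitochondrial transporter, from 10.60, 10.71 and 10.44 to 10.01, 9.88 and 9.91 (-0.65). The remaining falls of this size named by the rule were THAP5 (-0.68, with a second row at -0.15 that did not pass), LINC02694 (-0.67), NIM1K (-0.67), ANKRD26 (-0.66), CSF1, ZNF589 (-0.65), IL2RB, TMEM229B (-0.64), ANKRD37 (-0.63), TSPAN8 and TSPAN2, and 8 further falls lay between 0.59 and 0.61 in size.

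**Figure D3:**
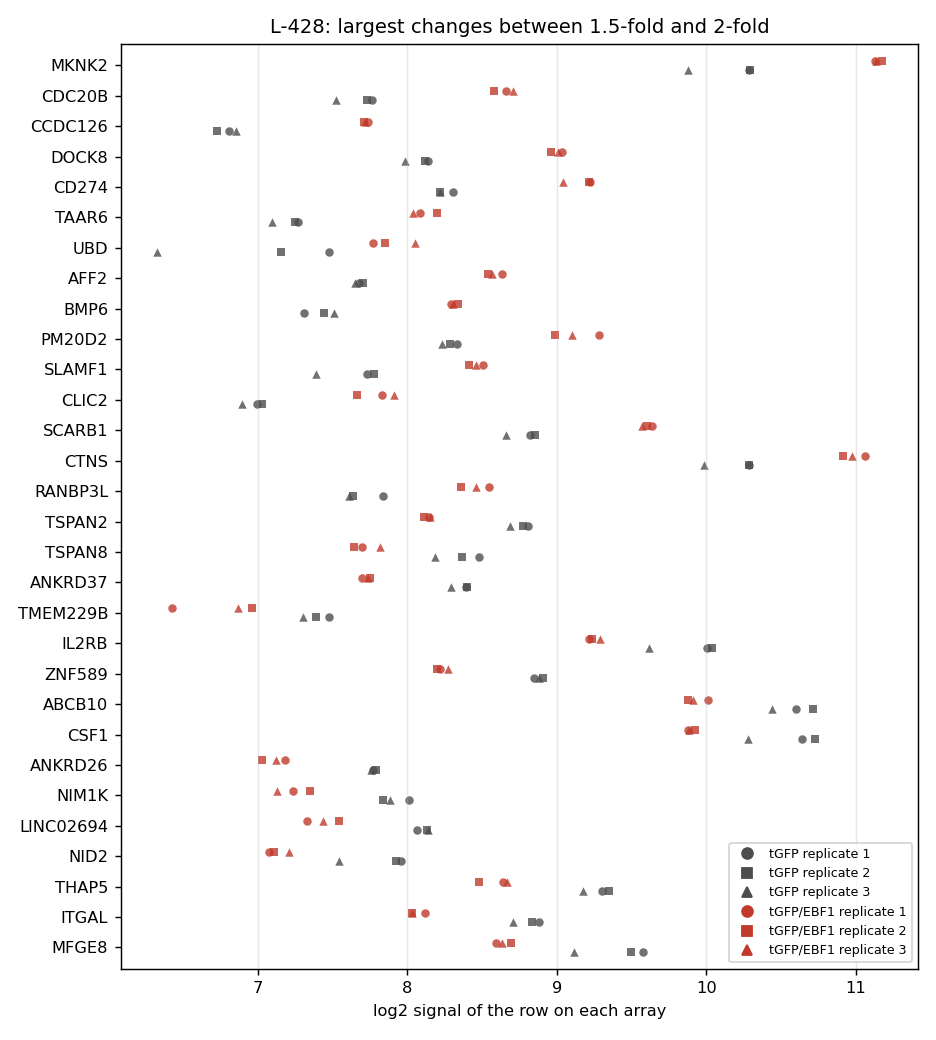
Log2 signal (horizontal axis) on each of the 6 arrays for the 15 largest rises and the 15 largest falls between 1.5-fold and 2-fold, controls in grey and EBF1 arrays in red. The colours are apart in every row; the widest spread among controls is that of UBD, from 6.33 to 7.48.

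Of all genes with 1 row each, 4.46% passed. Of the 52 lists, 35 had a larger share than this, 26 of them more than 2 times as large, and 17 a smaller one, 6 with no gene past the adjusted p. Of 381 solute carriers 11 rose and 5 fell (4.2%; 10 and 17 without control replicate 3), of 480 ZNF genes 6 and 2 (1.67%; 5 and 6), of 86 potassium channels 3 and 0 (2 and 2), of 360 olfactory receptor genes 0 and 1 (2 and 0), and of 189 microRNA genes 0 and 2 (MIR30E and MIR21, each -0.32; 0 and 2). Of 27 HOX genes 0 rose and 0 fell (limma; 0 and 3 at an unadjusted p under 0.05; without control replicate 3, 1 fell, HOXB9, at -0.38), and likewise of 33 tyrosine phosphatases (0 and 2). With all arrays the highest shares were those of the interferon-gamma list (35.5%), the EBF1 targets (29.2%), cell division genes (24%), caveolae and rafts (23.5%), Hodgkin markers (22.2%), semaphorins and plexins (21.9%) and nicotinic receptor subunits (20%). Without control replicate 3 the order changed, to Hodgkin markers (50%), cell division genes (40%), EBF1 targets (29.2%), genes that EBF1 represses (28.6%), the interferon-gamma list (25.8%) and histones (25%). Over all 18404 genes with 1 row each, 415 rose and 762 fell without that array, against 497 and 324 with all arrays. These lists were chosen with results of the same arrays known, and their shares are no test.

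Cell division genes fell where they moved. Of 25 measured, 0 rose and 6 fell, with a median of -0.18 (limma; 0 and 12 at an unadjusted p under 0.05), and all 25 had a change below 0. BUB1, a checkpoint kinase, read 11.28, 11.36 and 11.14 on the controls and 10.97, 10.84 and 10.89 with EBF1 (-0.36; limma, adjusted p = 0.00323). KIF20A (-0.34), CCNA2 (-0.30), CCNB1 (-0.28), AURKB (-0.24) and PRC1 (-0.22) followed. BUB1 and KIF20A passed in every setting tried, whereas PRC1 lost its call in 10, AURKB in 9 and CCNA2 and CCNB1 in 7 each. The mean of the list was 10.49, 10.54 and 10.32 on the controls and 10.31, 10.21 and 10.27 with EBF1, so control 3 lay just above the highest EBF1 array, and without it 10 of the 25 fell and the median was -0.24. Other families depended on the same array, without which falls over all 18404 genes with 1 row each went from 324 to 762. Of 56 histone genes 1 rose and 3 fell (0 and 14 without it), of 176 small nucleolar RNAs 0 and 3 (0 and 12), and of 64 ribosomal protein genes 0 and 0 (0 and 6; with all arrays 1 and 0 at an unadjusted p under 0.05). The means of these 3 lists were lowest of all controls on replicate 3. Their lower reading on control replicate 3 moves with these counts, and its part in them was not tested.

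**Figure D4:**
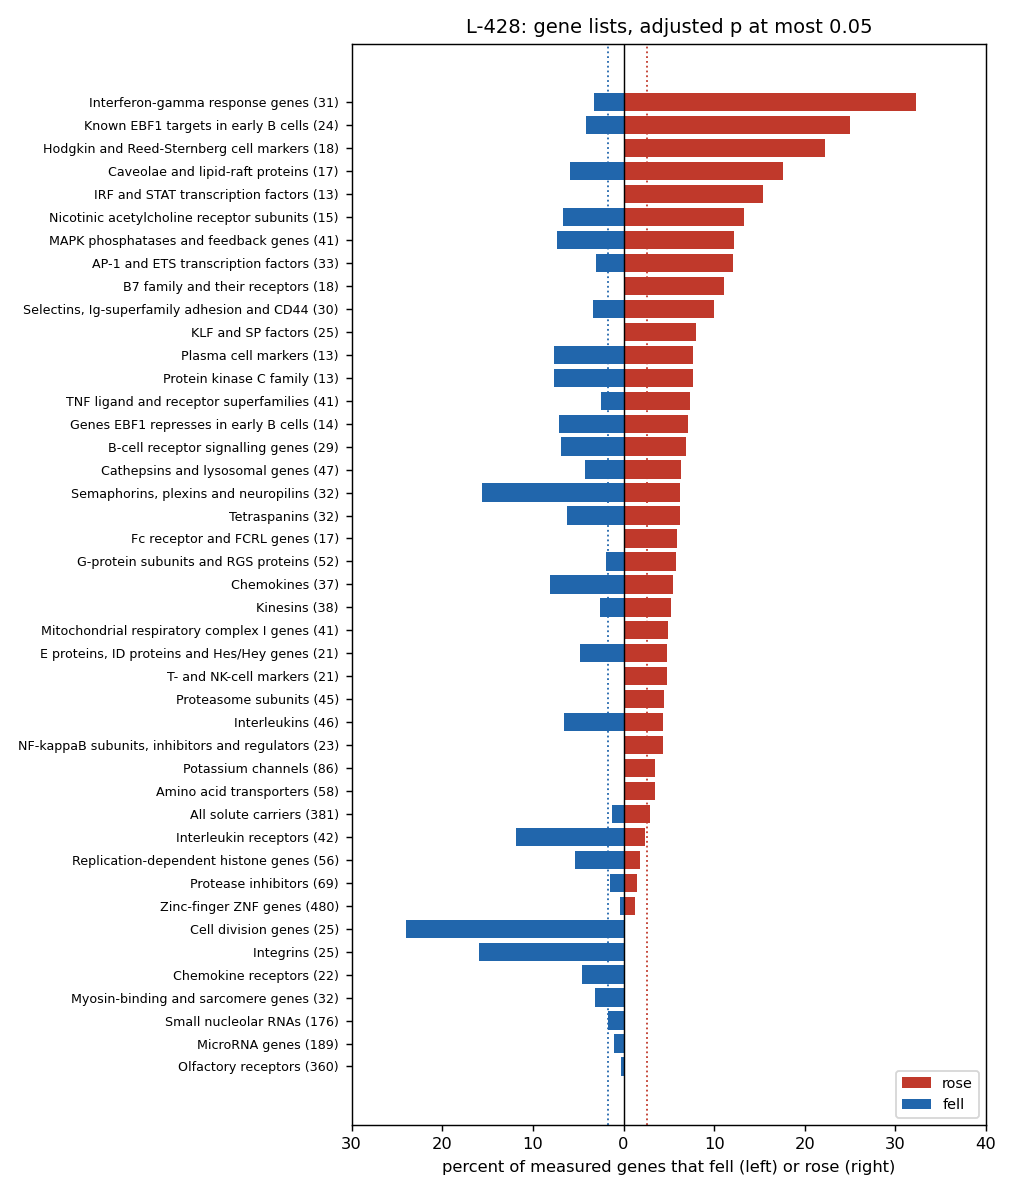
Percent of the measured genes of each list that rose (red, to the right) or fell (blue, to the left) with EBF1, with the number measured in brackets and the share over all rows tested as dotted lines (2.62% and 1.72%); the plot holds lists of at least 12 measured genes with at least 1 past the adjusted p, apart from 1 that is not reported. The interferon-gamma list extends farthest to the right (10 of 31) and the cell division list farthest to the left (6 of 25).

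The arrays carried the markers of the line. Of 18 genes known in Hodgkin and Reed-Sternberg cells, 15 lay above the array median on all 6 arrays, TNFRSF8, which codes for CD30, at 10.38 ± 0.15 and 10.42 ± 0.036 (SD, n = 3) and IRF4 at 11.93 in both groups. Of these 18, 4 rose and 0 fell (5 and 4 without control replicate 3), namely CCL22, CD40, TNFRSF9 and CD83 (0.32), a surface protein of activated cells. Of 21 T- and NK-cell markers, 19 lay below the array median on all 6 arrays, and the CD3 chains of the T-cell receptor complex, CD3D, CD3E and CD3G, had group means of 6.24 to 6.31. The list mean was 6.60 to 6.71 on the controls and 6.62 to 6.67 with EBF1, and PRF1, perforin, rose (0.37), joined without control replicate 3 by the kinase ZAP70 (0.26). Of 13 myeloid markers 10 and of 16 stromal, endothelial and epithelial markers 13 lay below the array median on all arrays, and 0 of either list passed (limma; at an unadjusted p under 0.05, 1 higher and 0 lower in each; without control replicate 3 the myeloid CSF1R, at 0.21 with all arrays, passed). CD14 read 6.77 and 6.73, and the means of the myeloid list were 6.86 to 6.99 and 6.91 to 6.92. Of 14 genes that EBF1 is known to hold down in early B cells, TBX21, a T-cell factor, rose (0.32) and IL2RB fell (2 and 2 without control replicate 3), and of 13 plasma cell markers CD38 rose and ELL2 (-0.27) fell (2 and 1).

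**Figure D5:**
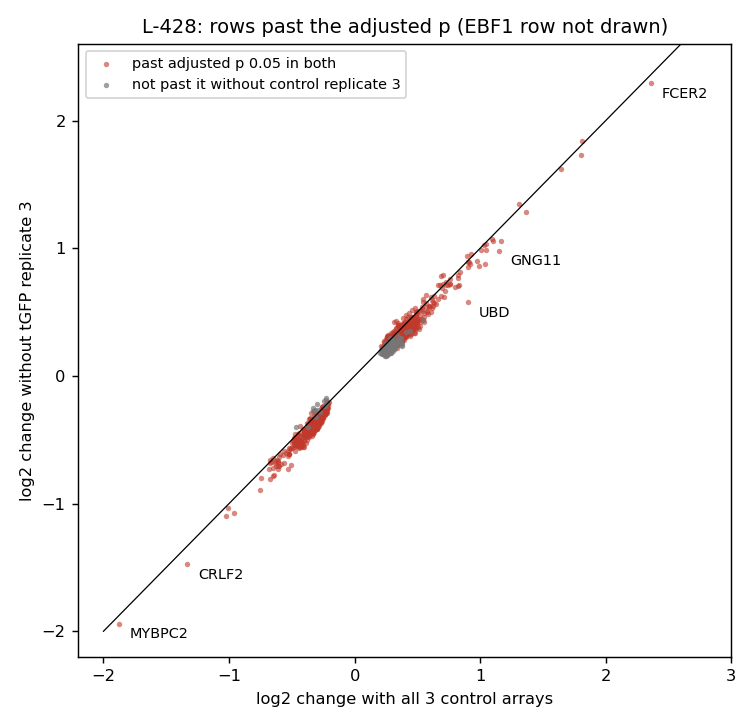
Log2 change without control replicate 3 (vertical axis) against the change with all 3 controls (horizontal axis) for the rows that passed the adjusted p, EBF1 not drawn; the line marks equal values, red points pass both ways and grey points pass with all controls only. Rows that rose lie mostly on or below the line and rows that fell mostly below it, farthest for UBD (0.91 and 0.58), and no point changes sign.

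Whether the effects belong to L-428 was tested as a difference from the effect in L-1236 in the same fit. Over all rows 1061 (5.16%) differed, and 18 of the 20 rows past 2-fold in L-428 did, with SEMA7A and CRLF2 the exceptions. SLC26A4 rose in L-428 and fell in L-1236, by 1.80 and -1.34, and MYBPC2 was at -1.88 and -0.021. CXCL9, CHRNA1, PRKCH and GNG11 lay between -0.10 and 0.0 in L-1236, while FCER2, CD40, GCSAM and RFTN1 changed in the same direction there by less, and CCL22 by more. The 20 rows were chosen by their change in L-428, and a larger effect there than in the other line is no independent support.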

How the data were processed

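Gene expression was measured on Affymetrix whole-transcript arrays, from RNA amplified with the WT Expression Kit per the labels' protocols, in 3 samples of each of 4 groups. The authors deposited 1 table of log2 signal per probe set and array. The log base was read from the range of the values. How probes were corrected, summarised and scaled was not given in the sources used here. Medians of the 12 arrays lay between 7.19 and 7.31, and the deposited values were used as they stand. Rows took their symbols from the platform annotation, and the 11775 rows without a symbol were not tested. A mean over 4 groups was fitted to all 12 arrays with limma 3.58.1 in R 4.3.3 (lmFit, eBayes), so that both lines share the estimate of spread, and p-values were adjusted by Benjamini-Hochberg over 20546 rows. Calls used an adjusted p of 0.05, alone, with 1.5-fold and with 2-fold, the study's limits being a false discovery rate of 5% and 2-fold. Intervals and standard errors rest on 3 arrays a group, which limits their precision.

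The text names the marker genes given for this comparison, every row with 1 symbol past 2-fold, up to 15 rows in each direction between 1.5-fold and 2-fold, up to 4 called members of each list, the genes nearest the 2-fold limit, and ligands, receptors or partners of the 2-fold genes. Further members of lists, IFNG, TRIM14 and BST2 were added after their values were seen. The members and the gene lists were chosen with earlier results of these data known. A list counts the brightest row of each gene, and 1 list is not reported here. The code was tested on simulated data. Figures were drawn with matplotlib 3.10.9 under Python 3.11.15.

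Replicate numbers recur in both groups. The correlations of same-numbered samples' deviations from the group means were 0.233, -0.210 and -0.020. Those of different-numbered samples ran from -0.280 to 0.310. With 3 arrays a group, such values cannot tell whether the numbers pair the samples, and the main fit used no pairing.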

Additional observations from a re-analysis of the deposited data

Results flagged for a closer look

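For 18 of the 20 rows past 2-fold, the change in L-428 and the change in L-1236 under the same vectors differed by a test of the difference itself in the same fit (limma, adjusted p from 1.72e-12 to 0.03). The differences are log2 changes in L-428 minus those in L-1236, over 3 arrays against 3 in each line.

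Genes higher in L-428 and near 0 in L-1236 were CXCL9 (difference 1.73, with 1.65 in L-428 and -0.082 in L-1236), GNG11 (1.25, with 1.15 and -0.097), PRKCH (1.15, with 1.05 and -0.10), CHRNA1 (1.09, with 1.09 and -0.00066) and TFPI2 (1.26, with 1.37 and 0.11). SLC26A4 changed in opposite directions, with a difference of 3.14 from 1.80 and -1.34. MRAP2 differed by 1.61 (1.81 and 0.20), FCER2 by 1.01 (2.36 and 1.35), CAVIN3 by 0.96 (1.10 and 0.14), NSMF by 0.82 (1.16 and 0.35), FOS by 0.80 (1.04 and 0.23), LGALS3BP by 0.78 (1.01 and 0.22) and CD40 by 0.74 (1.05 and 0.30). CCL22 rose less in L-428 (difference -0.50, with 1.03 and 1.53), and EBF1 itself did too (-1.46, with 4.51 and 5.97). Of the falls, MYBPC2 differed by -1.86 (-1.88 and -0.021), RFTN1 by -0.50 (-1.02 and -0.52) and GCSAM by -0.38 (-1.01 and -0.63).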

How the results depend on the processing

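At 2-fold, the 16 rises became 12 after quantile normalization and 13 to 19 with 1 array left out, and the 4 falls became 2 and 2 to 5, the 2 without tGFP replicate 2. Of the 127 named genes that passed, 87 passed under every alternative. Among the others, calls were lost in 9 settings each for IL12RB1, ELL2 and PPP3CA, and in 8 each for PLXNC1, CX3CL1, SPRED1 and DUSP4. MIR21 lost its call in 7. At 1.5-fold, leaving out 1 array gave 53 to 68 rises and 20 to 40 falls, the most falls without tGFP replicate 3. The counts with no fold limit, 538 and 354, moved most, to 964 and 650 with quantile normalization, 345 and 153 with median centring, 1090 and 1502 with array weights, which gave tGFP replicate 3 a weight of 0.162, and 270 and 164 at an adjusted p of 0.01. With 1 array left out they ran from 285 to 547 and from 178 to 843; the cause was not tested. The EBF1 change ran from 4.46 to 4.60. Changes of sign met only genes that pass nowhere in the alternatives run. With array weights CAV1 was at -0.070, CCL17 at 0.0043 (0.0081 with median centring), CD14 at 0.0077, CD3E at 0.036, CXCL10 at -0.0032, CXCL11 at -0.031, IRF4 at -0.065, JAK1 at -0.0046 and TNFRSF8 at -0.027. With 1 array left out, CAV1 ran from -0.090 to 0.16, CCL17 from -0.046 to 0.053, CD14 from -0.077 to 0.021, CD3E from -0.084 to 0.041, CD3G from -0.060 to 0.082, CXCL10 from -0.016 to 0.16, CXCL11 from -0.062 to 0.053, IFNGR2 from -0.0041 to 0.17, IRF4 from -0.073 to 0.079, JAK1 from -0.026 to 0.13 and TNFRSF8 from -0.047 to 0.086. With the replicate block there were 16 and 4 rows at 2-fold, 60 and 28 at 1.5-fold and 594 and 404 with no fold limit, and 18 differences from L-1236. With the loose EBF core in place of the strict one, the share of promoters rose to 21.3% of genes that rose and 24.8% of those that fell. With 3 arrays a group and a median standard error of 0.0694, no change smaller than 0.203 in size passed in the main fit. This is no fixed limit of detection, since the standard error differs between rows, and smaller changes may have been missed.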

Other observations

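Of the 11775 rows with no symbol, 0 rose and 1 fell by 2-fold or more in a fit of all rows (limma), and that row is unnamed here.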
